A study of Mus musculus with 8 samples.

Results

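Genes that type I interferon is known to induce were examined in activated mouse CD8+ T cells that had been kept with 1 of 3 compounds or with vehicle. A set of 40 such genes was chosen by gene symbol out of 45777 genes in the count table. All 40 had counts in every library, the lowest being 13 in 1 library, and all 40 passed the filter on low counts, so that they stand among the 16750 genes tested. Primary CD8+ T cells from lymph node and spleen of C57BL/6 mice were activated with antibodies to CD3 and CD28 and treated for 48 hours. The 4 groups of 2 RNA-seq libraries received DMSO, which is the vehicle, EnPGC-1, Ctrl PIP or SGC-CBP30. All 4 groups, the vehicle included, carried the same activation, and neither a resting group nor a group given interferon is among the samples analysed here. EnPGC-1 and Ctrl PIP are named as PIPs (pyrrole-imidazole polyamides, which bind DNA by sequence), and SGC-CBP30 is a small molecule that blocks the bromodomains of CBP and p300, which are histone acetyltransferases. The labels name no dose, so the compounds are set side by side and are not matched by dose. They also give no age of the mice and do not say whether libraries 1 and 2 of a group came from separate animals or cultures. The p-values below therefore measure the spread between libraries, which may be technical.

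Type I interferons (the many interferon alpha proteins and interferon beta) bind a receptor of the chains IFNAR1 and IFNAR2 and activate the kinases JAK1 and TYK2. These phosphorylate STAT2, which is held with IRF9 in a complex called ISGF3 that binds interferon-stimulated response elements in promoters. The induced proteins sense viral RNA and DNA, degrade or block viral RNA, or tag proteins, and several (STAT2, IRF9, IRF7 and the RNA sensors) are parts of the pathway itself. In CD8+ T cells, type I interferon is known as a signal that acts beside antigen and costimulation during infection. Many of the same genes also respond to interferon gamma, which activated CD8+ T cells make, and the GTPases Gbp2, Igtp and Irgm1 are well known for that response.

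The libraries held 38890043 to 55491261 counts and 18348 to 19057 detected genes. All 13 markers of CD8 T cells were detected in every library, with a summed level of 5629 to 7954 CPM (counts scaled to the normalized library size). Over all genes tested, the libraries of DMSO and those of EnPGC-1 lay far apart, with 36.7% and 28.3% of genes over 2-fold different between library 1 and library 2. In Ctrl PIP and SGC-CBP30 the shares were 9.58% and 7.68%. With DMSO and EnPGC-1, that difference went with transcript length (Spearman's rho over 15437 genes 0.46 and 0.42, longer transcripts being higher in library 1). RNA of other cells was present: the neutrophil and granule gene list reached 58.3 CPM in EnPGC-1 library 1 and 10.5 CPM in DMSO library 1, against 0.0557 to 2.11 CPM in the other libraries. In such bulk samples, fewer cells with a transcript and less of it per cell cannot be told apart. Values of a group are given below for library 1 and then library 2.

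Many members hold a sequence feature known from interferon-induced genes, so it is not independent of their choice. The core of the interferon-stimulated response element was searched as GAAA, any 2 bases and GAAA again, on both strands, where matches may overlap each other, in RefSeq promoters of GRCm38.p6 (250 bases before to 50 bases after a gene's start). Of the 31 members with a promoter in that table, 16 held a match (51.6%), against 1079 of 27025 genes (3.99%). Irf9, Irf7, Oasl2 and Samhd1 were among the members without a match. By promoter, 3.44% of all 32851 windows of 300 bases held a match. Among other interferon-induced genes that are no members, 37 of 75 (49.3%) held one. The stretches below are shown because they hold that core in members with values in all libraries further on, and each ends before the gene's start. Capitals mark the matches, which read TTTC where the match lies on the other strand, and each line is written 5′ to 3′ on the gene's strand.
Stat2, chr10:128270251-128270310, plus strand: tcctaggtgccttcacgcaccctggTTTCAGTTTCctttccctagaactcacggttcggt
Ifit1, chr19:34640760-34640838, plus strand: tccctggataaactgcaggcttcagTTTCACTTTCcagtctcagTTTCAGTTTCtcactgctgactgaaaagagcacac
Isg15, chr4:156200850-156200921, minus strand: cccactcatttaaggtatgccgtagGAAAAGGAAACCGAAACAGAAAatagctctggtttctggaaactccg
Bst2, chr8:71537562-71537627, minus strand: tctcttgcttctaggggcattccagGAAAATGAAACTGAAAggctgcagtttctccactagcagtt
Gbp2, chr3:142620579-142620638, plus strand: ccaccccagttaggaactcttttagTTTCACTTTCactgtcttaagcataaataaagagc
Isg15 holds 3 overlapping matches, Ifit1 and Bst2 hold 2 each, and Stat2 and Gbp2 hold 1 each. The first match begins 222 bases before the start in Stat2, 104 in Ifit1, 78 in Isg15, 130 in Bst2 and 59 in Gbp2. A match in letters describes the promoter and does not show binding in these cells.

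The members lay at very different levels. Per length of transcript, Igtp, an immunity-related GTPase, was highest with a mean over all libraries of 333 RPKM (counts scaled to library size and transcript length), next to Samhd1, which encodes a dNTP hydrolase that restricts viruses, with 319 RPKM. Gbp2 followed with 160.4, Bst2, which encodes tetherin, with 75.3, and Irgm1, another immunity-related GTPase, with 65.7 RPKM. Of the 40 members, 28 lay above the median of all genes on that scale and 7 in the top 10 percent. At the other end stood genes often used to report an interferon response: Ifi44 at 0.329, Mx2 at 0.460, Oas2 at 0.657, Rsad2 at 0.690, Oasl1 at 0.959, Oasl2 at 1.04 and Mx1 at 1.61 RPKM. These are the 7 members in the lowest 30 percent of genes. Isg15, which is among the most strongly induced genes in many cells, stood at 7.22 RPKM.

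The ligands were at or near the limit of detection. Of 18 type I interferon genes in the count table, 16 had 0 counts in all 8 libraries, Ifnb1 and every numbered Ifna gene among them. A count of 0 allows a level of up to 0.0552 to 0.0729 CPM, depending on the library (3 counts, counting error only). The exceptions were Ifnz, with 1 to 8 counts per library, and Ifnab, with 3 counts in EnPGC-1 library 2 and 0 elsewhere.

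**Figure D1:**
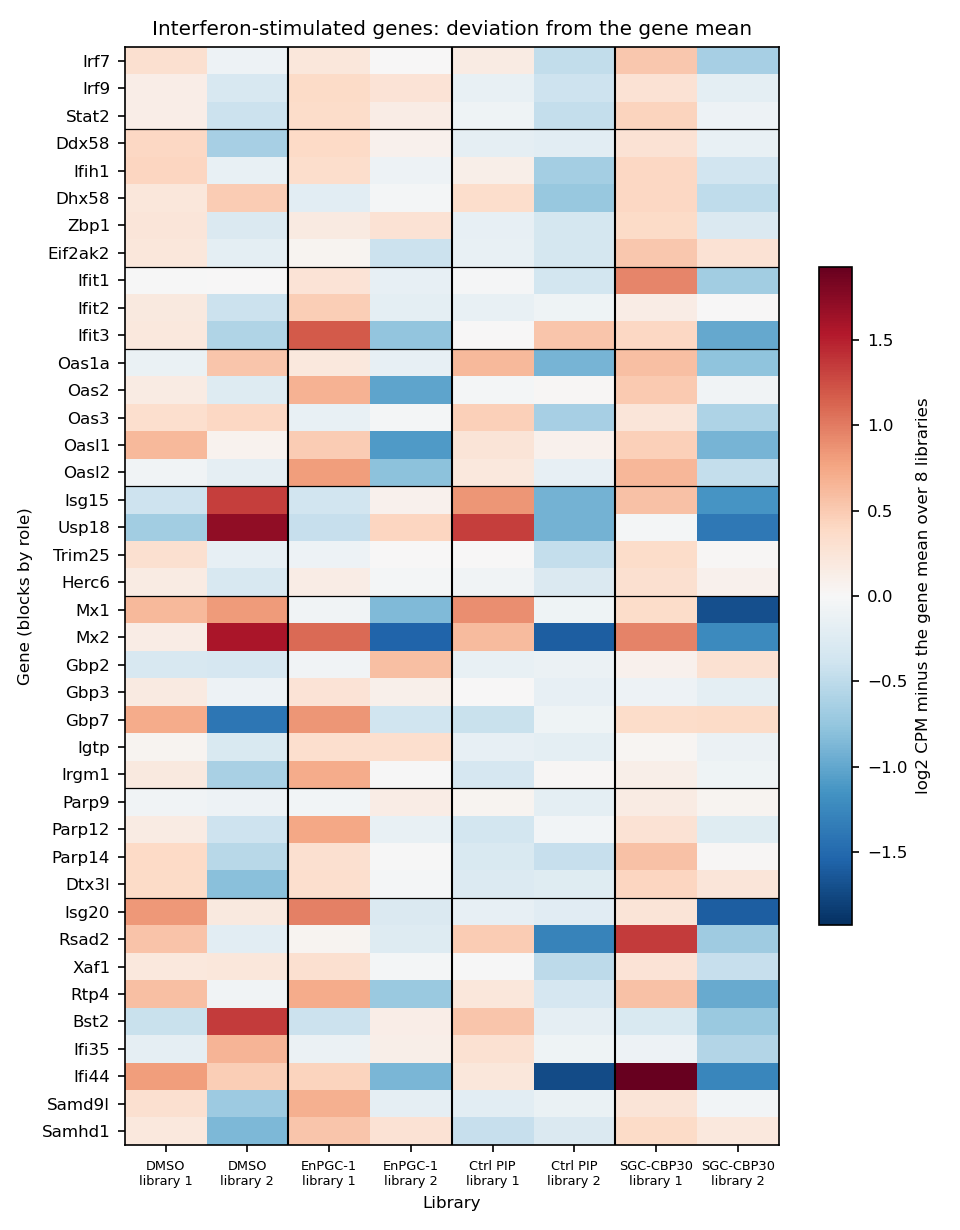
Heat map of the 40 members (rows, in blocks by role) over the 8 libraries (columns, with lines between groups). Colour gives log2 CPM minus the gene's mean over all libraries. In SGC-CBP30, 38 of 40 members are higher in library 1 than in library 2, and DMSO library 2 is the lowest of all libraries for 12 members and the highest for 6.

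Among the transcription factors, Stat2 and Irf9 encode parts of ISGF3 and Irf7 encodes the factor that amplifies interferon alpha production. Stat2 stood at 85.9 and 59.2 CPM (DMSO), 101 and 86.7 (EnPGC-1), 74.2 and 57.2 (Ctrl PIP), and 106 and 73.1 (SGC-CBP30). Irf9 stood at 120.2 and 88.8 CPM (DMSO), 142 and 132 (EnPGC-1), 99.7 and 83.6 (Ctrl PIP), and 133 and 95.97 (SGC-CBP30). For both genes, the EnPGC-1 libraries lay above all libraries of DMSO and Ctrl PIP, and they overlapped those of SGC-CBP30. Irf7 stood at 60.9 and 45.8 CPM (DMSO), 57.2 and 49.2 (EnPGC-1), 54.7 and 35.4 (Ctrl PIP), and 70.1 and 31.3 (SGC-CBP30), with all groups overlapping.

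The sensor genes encode receptors of foreign RNA (Ifih1, which encodes MDA5, Ddx58, which encodes RIG-I, and the related Dhx58), the nucleic acid sensor Zbp1 and the RNA-activated kinase PKR (Eif2ak2). Ifih1 stood at 17.2 and 11.7 CPM (DMSO), 16.3 and 12.03 (EnPGC-1), 14.02 and 8.19 (Ctrl PIP), and 16.99 and 9.94 (SGC-CBP30), and Ddx58 at 107 and 52.3 CPM (DMSO), 106 and 85.7 (EnPGC-1), 71.8 and 70.7 (Ctrl PIP), and 98.4 and 73.6 (SGC-CBP30). Their libraries overlapped between DMSO and each compound, with DMSO library 2 lowest of all for Ddx58. Eif2ak2 stood at 54.5 and 41.1 CPM (DMSO), 48.4 and 35.1 (EnPGC-1), 42.2 and 36.9 (Ctrl PIP), and 66.8 and 56.3 (SGC-CBP30). Both SGC-CBP30 libraries of Eif2ak2 lay above the other 6, and the other groups overlapped. Dhx58 ranged over the libraries from 12.7 to 29.9 CPM and Zbp1 from 106 to 174 CPM.

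Ifit2, Ifit3 and Ifit1 encode proteins that bind viral RNA and lie near each other on chromosome 19 (chr19:34550550-34576534, chr19:34583119-34588982 and chr19:34640889-34650009). Ifit1 stood at 9.61 and 9.72 CPM (DMSO), 11.6 and 8.65 (EnPGC-1), 9.48 and 7.55 (Ctrl PIP), and 18.5 and 6.04 (SGC-CBP30), and Ifit3 at 16.1 and 9.34 CPM (DMSO), 31.8 and 8.30 (EnPGC-1), 14.1 and 20.4 (Ctrl PIP), and 18.4 and 7.07 (SGC-CBP30). Ifit1 was highest in SGC-CBP30 library 1 and lowest in library 2 of the same group. Ifit3 was highest in EnPGC-1 library 1 and next to lowest in library 2 of that group, and its close copy Ifit3b may share its reads, since the rule of counting is unknown. Ifit2 ranged from 36.8 CPM in DMSO library 2 to 68.0 CPM in EnPGC-1 library 1.

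The OAS genes encode the 2'-5' oligoadenylate synthetases, which activate the ribonuclease RNase L, and related proteins. They lie on chromosome 5, and reads of near copies may be shared between them. Oasl2 stood at 2.90 and 2.71 CPM (DMSO), 5.34 and 1.75 (EnPGC-1), 3.52 and 2.74 (Ctrl PIP), and 4.77 and 2.22 (SGC-CBP30). Its groups overlapped, the EnPGC-1 libraries holding both the highest and the lowest value. Oas3, the member of this family with the most counts, ranged from 28.7 to 61.6 CPM, Oas1a from 4.20 to 12.1, Oas2 from 1.21 to 3.96 and Oasl1 from 0.891 to 3.02 CPM.

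Isg15 encodes a ubiquitin-like protein, Usp18 the protease that removes it and also damps the receptor, and Herc6 and Trim25 encode ligases. Isg15 stood at 3.52 and 11.8 CPM (DMSO), 3.59 and 4.92 (EnPGC-1), 8.38 and 2.45 (Ctrl PIP), and 6.94 and 2.09 (SGC-CBP30). Usp18 stood at 9.96 and 52.4 CPM (DMSO), 11.7 and 21.1 (EnPGC-1), 40.1 and 8.44 (Ctrl PIP), and 15.6 and 6.10 (SGC-CBP30). For both genes, the 2 highest libraries were DMSO 2 and Ctrl PIP 1, the lowest was SGC-CBP30 2, and the DMSO libraries alone spanned all values of EnPGC-1. Trim25 stood at 216 and 157 CPM (DMSO), 164 and 175 (EnPGC-1), 176 and 127 (Ctrl PIP), and 224 and 177 (SGC-CBP30), and Herc6 ranged from 33.8 to 52.0 CPM, both far more even.

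The GTPases include the Mx proteins, the guanylate-binding proteins and the immunity-related GTPases. Gbp2 stood at 318 and 315 CPM (DMSO), 378 and 592 (EnPGC-1), 359 and 364 (Ctrl PIP), and 419 and 483 (SGC-CBP30). Gbp2 was lowest in the 2 DMSO libraries, which differed by little, and its EnPGC-1, Ctrl PIP and SGC-CBP30 libraries all lay above them. Igtp stood at 693 and 543 CPM (DMSO), 836 and 833 (EnPGC-1), 595 and 586 (Ctrl PIP), and 680.3 and 615 (SGC-CBP30), with both EnPGC-1 libraries above the other 6. Gbp3 stood at 72.9 and 60.7 CPM (DMSO), 77.8 and 69.8 (EnPGC-1), 64.99 and 58.4 (Ctrl PIP), and 60.9 and 56.8 (SGC-CBP30), and Gbp7, its neighbour on chromosome 3 (chr3:142530336-142550151, against chr3:142560016-142573213 for Gbp3 and chr3:142620663-142638008 for Gbp2), ranged from 39.1 CPM in DMSO library 2 to 185 CPM in EnPGC-1 library 1. Over these 3 neighbours, the highest library was 1.37 times the lowest for Gbp3 and 4.74 times the lowest for Gbp7. Mx1, of which C57BL/6 mice are known to carry a defective allele, stood at 7.32 and 8.36 CPM (DMSO), 4.52 and 2.62 (EnPGC-1), 8.86 and 4.45 (Ctrl PIP), and 6.07 and 1.44 (SGC-CBP30). Both EnPGC-1 and both SGC-CBP30 libraries of Mx1 lay below the 2 DMSO libraries, and they overlapped those of Ctrl PIP. Mx2 ranged from 0.251 to 2.57 CPM and Irgm1 from 157 to 399 CPM.

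The PARP genes encode ADP-ribosyltransferases, and DTX3L is the ubiquitin ligase that forms a complex with PARP9. Parp14 stood at 270.4 and 143 CPM (DMSO), 257 and 207 (EnPGC-1), 170.4 and 153 (Ctrl PIP), and 308 and 211 (SGC-CBP30). Its libraries in Ctrl PIP lay below both of EnPGC-1 and both of SGC-CBP30. The genes Dtx3l (chr16:35926515-35939027) and Parp9 (chr16:35938470-35972621) overlap by 558 bases on chromosome 16 and are known to share a bidirectional promoter. Their libraries were ordered differently. Dtx3l stood at 323 and 144 CPM (DMSO), 314 and 245 (EnPGC-1), 208 and 214 (Ctrl PIP), and 332 and 294 (SGC-CBP30). Parp9 stood at 154 and 150.2 CPM (DMSO), 154 and 178 (EnPGC-1), 167 and 141 (Ctrl PIP), and 180.0 and 167 (SGC-CBP30), and its highest library was 1.27 times the lowest, the smallest ratio among the 40 members. Parp12 ranged from 6.95 to 15.4 CPM.

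Of the other effectors, Samhd1 stood at 1377 and 658 CPM (DMSO), 1742 and 1447 (EnPGC-1), 882 and 984 (Ctrl PIP), and 1541 and 1381 (SGC-CBP30). Both EnPGC-1 libraries of Samhd1 lay above those of DMSO and Ctrl PIP, as did both of SGC-CBP30, and DMSO library 2 was lowest. Bst2 stood at 39.9 and 137 CPM (DMSO), 40.4 and 58.7 (EnPGC-1), 77.9 and 47.4 (Ctrl PIP), and 43.5 and 32.6 (SGC-CBP30). Ifi35, which encodes an interferon-induced leucine zipper protein, stood at 40.8 and 72.5 CPM (DMSO), 42.6 and 49.8 (EnPGC-1), 56.3 and 43.6 (Ctrl PIP), and 43.1 and 31.2 (SGC-CBP30). For Bst2 and Ifi35, as for Isg15 and Usp18, DMSO library 2 was highest and Ctrl PIP library 1 next. Their longest transcripts have 792 (Bst2), 1362 (Ifi35), 756 (Isg15) and 1771 bases (Usp18). Isg20 (1087 bases) and Ifit3 (1745 bases) were instead higher in DMSO library 1 than in DMSO library 2. Xaf1, which encodes a proapoptotic partner of XIAP, stood at 40.3 and 40.5 CPM (DMSO), 43.3 and 33.8 (EnPGC-1), 34.8 and 24.5 (Ctrl PIP), and 41.9 and 25.5 (SGC-CBP30), with the Ctrl PIP libraries below those of DMSO. Samd9l ranged from 98.0 to 255 CPM, Rtp4 from 9.42 to 30.3, Isg20, which encodes an exonuclease, from 1.59 to 9.50, Rsad2, which encodes viperin, from 1.00 to 6.48, and Ifi44 from 0.270 to 3.87 CPM.

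**Figure D2:**
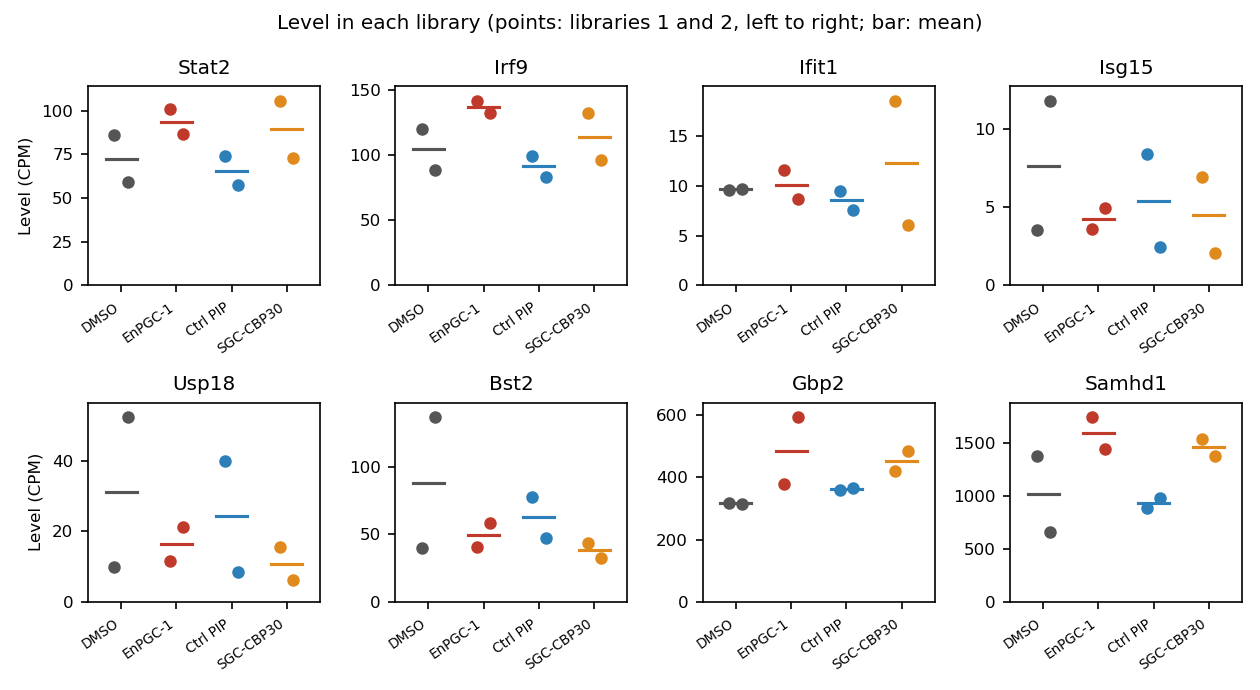
Level in CPM (vertical axes, from 0, scaled per gene) of 8 members in each library, with libraries 1 and 2 of a group from left to right and the bar at their mean. Irf9 is higher in both EnPGC-1 libraries (142 and 132 CPM) than in all DMSO and Ctrl PIP libraries, whereas the DMSO libraries of Usp18 (9.96 and 52.4 CPM) span the other groups but for SGC-CBP30 2 and Ctrl PIP 2.

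EnPGC-1 was first set against DMSO, its vehicle. The 2 libraries of Irf9, Stat2, Parp9, Gbp2, Igtp and Samhd1 lay above both DMSO libraries, and those of Mx1, Oas3, Dhx58 and Ifi44 lay below both. No member was called by edgeR's quasi-likelihood test at an adjusted p under 0.05 (0 of 40, against 0% of all genes tested), none had an unadjusted p under 0.05 (beside 438 of all genes), and DESeq2's Wald test called 0 members and 19 genes in all. The 6 members with both libraries higher stand beside 9.83% of all genes (15% of members), and the 4 with both lower beside 9.24% (10% of members). The member with the smallest p was Gbp2, at 485 ± 152 CPM against 317 ± 2.54 (SD, n = 2), a log2 fold change of 0.62 (SE 0.26, 95% interval -0.0031 to 1.23) and an edgeR adjusted p of 0.998. Igtp followed with 835 ± 2.53 against 618 ± 106 CPM and a log2 fold change of 0.43 (SE 0.22, 95% interval -0.087 to 0.96). For Samhd1, 1594 ± 208 stood against 1018 ± 508 CPM, and the log2 fold change was 0.65 (SE 0.37, 95% interval -0.24 to 1.53). Leaving out DMSO library 2 left Samhd1 at 0.21, and leaving out EnPGC-1 library 2 left Gbp2 at 0.25. Over the 40 members, 21 fold changes were above 0 and 19 below, with a median of 0.08 beside 0.00 over all genes. The interval of a typical member reached 0.97 to either side on the log2 scale, so that differences inside it were not detectable here. Without EnPGC-1 library 1 the median over the members was -0.22. Of the marker lists, 8 of 13 CD8 T cell genes (median 0.010) and 9 of 13 B cell genes (0.043) had fold changes above 0. So had all 6 tested erythroid and platelet genes (0.68) and all 4 tested neutrophil genes (2.68). NK cell genes went the other way, with 4 of 6 below 0 (-0.51). The neutrophil list summed to 58.3 and 0.0557 CPM with EnPGC-1 against 10.5 and 0.119 CPM with DMSO. Its sign thus came from EnPGC-1 library 1. The part of these markers in the members' values was not tested.

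Ctrl PIP against DMSO, the comparison of the control polyamide with the vehicle, shares the DMSO libraries with the one before. Of the 40 fold changes 34 were below 0 and 6 above, with a median of -0.20 beside -0.05 over all genes, of which 6946 of 16750 were above 0. edgeR called no member (0 of 40, against 0% of all genes), none had an unadjusted p under 0.05 (beside 100 of all genes), and DESeq2 called 0 members and 2 genes in all. Both libraries lay below DMSO for Ifit1, Isg20, Xaf1 and Ifi44, 4 of 40 beside 7.83% of all genes, and above it for Gbp2 alone, 1 of 40 beside 8.34%. Xaf1 had the smallest p, with a log2 fold change of -0.45 (SE 0.31, 95% interval -1.18 to 0.28) and an edgeR adjusted p of 1. Trim25 was at -0.30 (SE 0.26) and Eif2ak2 at -0.27 (SE 0.25) on the log2 scale, and without DMSO library 1 they were at -0.036 and -0.037. The median depended on the same library: without it, the median was 0.056. Most markers of T cells and of other cells had the members' sign, but 4 of 6 NK cell genes were above 0 (median 0.55). The part of these markers was not tested. Below 0 were 12 of 13 CD8 T cell genes (median -0.19), all 13 B cell genes (-1.10), 10 of 12 tested genes of dendritic cells and macrophages (-1.16), all 4 of neutrophils (-1.69) and all 6 of erythroid cells and platelets (-0.52). The dendritic cell and macrophage list summed to 122 to 134 CPM with Ctrl PIP and to 149 CPM in both DMSO libraries, and the erythroid list to 5.78 to 10.02 against 12.1 to 23.3 CPM. The neutrophil list summed to 1.16 and 2.02 CPM with Ctrl PIP, which lies between the DMSO libraries (10.5 and 0.119 CPM).

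SGC-CBP30 against DMSO compares the bromodomain inhibitor with the same DMSO libraries. Parp9, Eif2ak2, Gbp2 and Samhd1 lay higher in both libraries, 4 of 40 beside 16.2% of all genes, and Mx1 and Oas3 lower, 2 of 40 beside 14.5%. By edgeR, no member was called (0 of 40, against 0% of all genes), none had an unadjusted p under 0.05 (beside 735 of all genes), and DESeq2 called 0 members and 64 genes in all. Bst2 had the smallest p, at 38.1 ± 7.71 against 88.3 ± 68.4 CPM (SD, n = 2), a log2 fold change of -1.21 (SE 0.58, 95% interval -2.60 to 0.17) and an edgeR adjusted p of 0.943, although its libraries overlapped. Without DMSO library 2 the fold change of Bst2 was -0.067, and without DMSO library 1 it was -1.83. Gbp2 was at 0.51 (SE 0.26, 95% interval -0.11 to 1.13) on the log2 scale. Ifi35 was at -0.61 (SE 0.33, 95% interval -1.40 to 0.18), and at -0.14 without DMSO library 2. With offsets for transcript length and GC content, Bst2 was at -0.68, Ifi35 at -0.28 and Gbp2 at 0.62. The median over the members was 0.11, beside -0.03 over all genes, with 24 members above 0. It was -0.31 without SGC-CBP30 library 1 and 0.37 without DMSO library 1. Here 11 of 13 CD8 T cell markers (median -0.24), 11 of 13 B cell markers (-1.98), 10 of 12 tested genes of dendritic cells and macrophages (-1.52) and all 6 of erythroid cells and platelets (-1.93) were below 0, the opposite sign to the members' median, and their part was not tested.

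**Figure D3:**
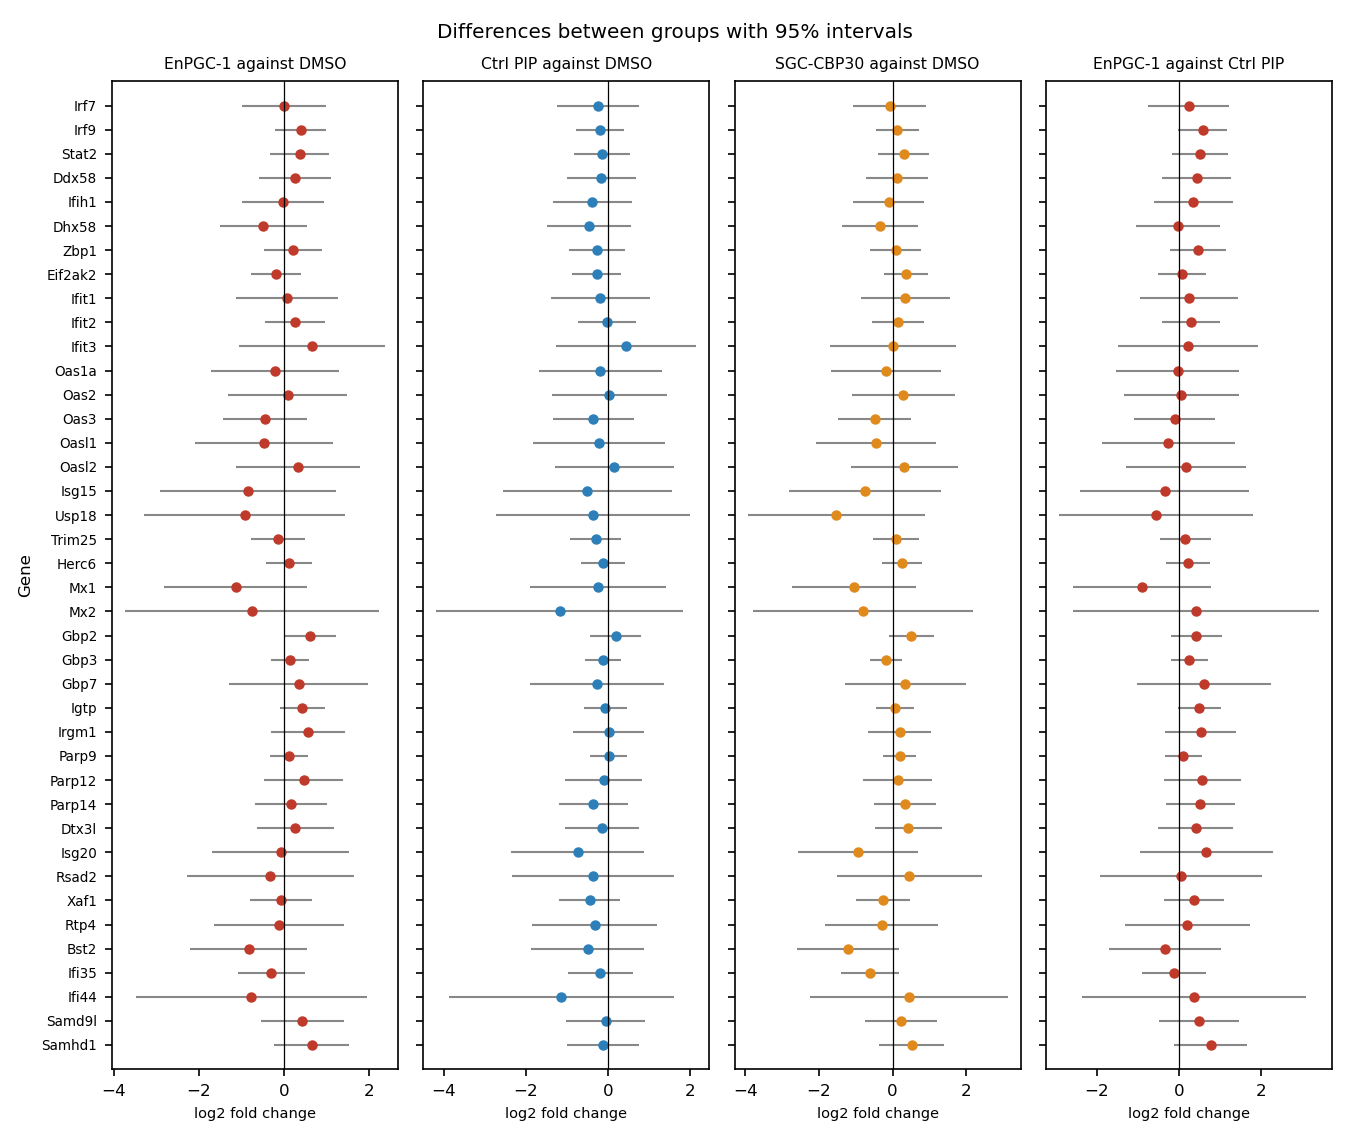
Log2 fold changes (horizontal axes) of the 40 members (vertical axis, by role) with 95% intervals from the edgeR fit, for the 3 compounds against DMSO and for EnPGC-1 against Ctrl PIP. All intervals in these 4 panels include 0, and 34 of 40 points of Ctrl PIP against DMSO lie below 0.

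EnPGC-1 against Ctrl PIP compares the polyamide with its control compound. No DMSO library enters the fold changes, but all 8 libraries enter the estimate of the spread behind the intervals and p-values. Both EnPGC-1 libraries lay above both Ctrl PIP libraries for Irf9, Stat2, Ddx58, Zbp1, Parp14, Dtx3l, Gbp2, Gbp3, Igtp, Samhd1 and Herc6, and they lay below for no member. These are 11 of 40 (27.5%) higher beside 20.7% of all genes, and 0 of 40 lower beside 21.7%. edgeR called no member (0 of 40, against 0% of all genes), none had an unadjusted p under 0.05 (beside 750 of all genes), and DESeq2 called 0 members and 36 genes in all. Irf9 had the smallest p, at 137 ± 6.78 against 91.6 ± 11.4 CPM (SD, n = 2), a log2 fold change of 0.58 (SE 0.25, 95% interval -0.015 to 1.18) and an edgeR adjusted p of 0.812. The smallest over all genes tested was the same value, shared by members of several roles as the lowest among the members. That lowest edgeR adjusted p was 0.381 without DMSO library 1 and 0.383 without DMSO library 2. Igtp was at 0.50 (SE 0.22, 95% interval -0.022 to 1.02), and Samhd1 at 0.77 (SE 0.37, 95% interval -0.11 to 1.66). Of the 40 fold changes, 31 were above 0, with a median of 0.25 beside 0.05 over all genes. Without EnPGC-1 library 1 the median was 0.0048, and without EnPGC-1 library 2 it was 0.52. Most markers had the same sign, but 5 of 6 NK cell genes were below 0 (median -1.18). Above 0 were 10 of 13 CD8 T cell genes (median 0.20), all 13 B cell genes (1.10) and 8 of 12 tested genes of dendritic cells and macrophages (0.95). So were all 4 tested genes of neutrophils (4.02) and all 6 of erythroid cells and platelets (1.22). The neutrophil list summed to 58.3 and 0.0557 CPM with EnPGC-1 against 1.16 and 2.02 CPM with Ctrl PIP. Its sign thus came from EnPGC-1 library 1. The erythroid list summed to 17.4 to 46.2 CPM with EnPGC-1 against 5.78 to 10.02 CPM with Ctrl PIP, and the part of these markers in the members' values was not tested.

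EnPGC-1 and SGC-CBP30 lay close to each other at the median, 0.07 on the log2 scale beside 0.02 over all genes, with 25 members above 0 and 15 below. Gbp3 and Igtp were higher in both EnPGC-1 libraries, 2 of 40 beside 13.2% of all genes, and Trim25 and Eif2ak2 lower, 2 of 40 beside 14.7%. By edgeR, no member was called (0 of 40, against 0%), none had an unadjusted p under 0.05 (beside 340 of all genes), and DESeq2 called 0 members and 16 genes in all, which does not show that the compounds act alike. The difference of Eif2ak2, the member with the smallest p, was -0.56 (SE 0.25, 95% interval -1.15 to 0.032), with an edgeR adjusted p of 1. Gbp3 was at 0.33 (SE 0.19, 95% interval -0.12 to 0.77) and Igtp at 0.37 (SE 0.22, 95% interval -0.16 to 0.89). The median was 0.51 without SGC-CBP30 library 1, -0.21 without SGC-CBP30 library 2 and -0.18 without EnPGC-1 library 1. Beside that median near 0, fold changes were above 0 for 12 of 13 CD8 T cell markers (median 0.22), 11 of 13 B cell markers (1.98) and all 6 erythroid and platelet genes tested (2.42), with their part not tested.

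Ctrl PIP lay below SGC-CBP30 for most members: 29 of 40 fold changes were below 0, with a median of -0.21 beside -0.01 over all genes. Both Ctrl PIP libraries were lower for Ifit2, Ddx58, Trim25, Parp9, Parp14, Dtx3l, Eif2ak2, Samd9l, Gbp2, Gbp7, Igtp, Samhd1 and Herc6, 13 of 40 (32.5%) beside 31.5% of all genes. They were higher for Bst2 and Ifi35, 2 of 40 (5%) beside 30.2%. No member was called by edgeR in the fit of all 8 libraries (0 of 40, against 0%), Eif2ak2 alone had an unadjusted p under 0.05 (beside 668 of all genes), and DESeq2 called 0 members and 31 genes in all. Eif2ak2 stood at 39.5 ± 3.75 CPM with Ctrl PIP against 61.5 ± 7.38 CPM with SGC-CBP30 (SD, n = 2). Its log2 fold change was -0.64 (SE 0.25, 95% interval -1.23 to -0.046), and edgeR gave an adjusted p of 0.871. Parp14 was at -0.69 (SE 0.35, 95% interval -1.53 to 0.16) and Samhd1 at -0.65 (SE 0.37, 95% interval -1.53 to 0.24). The median was 0.14 without SGC-CBP30 library 1. In this comparison 8 of 13 CD8 T cell markers (median 0.015) and 10 of 13 B cell markers (0.53) were above 0, and all 6 NK cell markers were (2.01), whose part was not tested.

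These 2 groups had the closest libraries over all genes, and a fit on their 4 libraries alone gave other calls. In it, 5 of 40 members (12.5%) were called by edgeR, all lower with Ctrl PIP, beside 15.8% of all genes tested. They were Eif2ak2 (log2 fold change -0.63, edgeR adjusted p = 0.0237), Dtx3l (-0.56, adjusted p = 0.0255), Gbp7 (-0.60, adjusted p = 0.0294), Samhd1 (-0.64, adjusted p = 0.0302) and Parp14 (-0.68, adjusted p = 0.0449). The share of members called lay near that of all genes.

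The calls also depended on which libraries of DMSO and EnPGC-1 were kept. Without library 1 of both, which leaves 1 library in each and assumes that it varies like the other groups, edgeR called Dtx3l, Gbp2, Gbp7 and Samhd1 higher with EnPGC-1 than with DMSO, 4 of 40 beside 6.44% of all genes. In the same fit, 13 members were called between SGC-CBP30 and DMSO beside 37.1% of all genes, Bst2 and Ifi35 lower and 11 higher. Of those 13 members, 4 (Dtx3l, Eif2ak2, Gbp7 and Samhd1) were also called between Ctrl PIP and SGC-CBP30, beside 13.3% of all genes. Without library 2 of both groups, no member was called between EnPGC-1 and DMSO or between SGC-CBP30 and DMSO. Dtx3l and Gbp7 were called lower with Ctrl PIP than with DMSO (beside 13.6% of all genes). Ifit2, Parp12, Dtx3l, Samd9l, Gbp7, Igtp, Irgm1 and Samhd1 were called between EnPGC-1 and Ctrl PIP, all higher with EnPGC-1 (8 of 40 beside 29.8%), and the same 4 members as in the fit before, Dtx3l, Eif2ak2, Gbp7 and Samhd1, were called between Ctrl PIP and SGC-CBP30 (beside 10.7%). DMSO library 2 had held the lowest level of Dtx3l, Gbp7 and Samhd1 among the 8 libraries, as given above.

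For most members, as for most genes tested, the largest difference between the libraries of a group was wider than the range of the group means. This measure sets means of 2 libraries against single libraries, which vary more. The range of the 4 group means exceeded the largest difference between the libraries of a group for 4 of 40 members (10%), which were Eif2ak2, Gbp3, Irf9 and Igtp, beside 21.1% of all genes tested. In SGC-CBP30, library 1 lay above library 2 for 38 of 40 members, with a median difference of 0.56 on the log2 scale and 14 members (35%) over 2-fold, beside 7.68% of all genes. The exceptions were Gbp2 and Gbp7. In Ctrl PIP, 30 of 40 members were higher in library 1, with a median of 0.25 and 8 members (20%) over 2-fold, beside 9.58% of all genes. The median size of the difference, whatever its sign, was 0.56 in SGC-CBP30 and 0.35 in Ctrl PIP for the members, beside 0.20 for all genes in each. Library 1 was also higher for 29 of 40 members in DMSO (median 0.42) and 30 of 40 in EnPGC-1 (median 0.33), so that library 1 was higher for most members within each of the 4 groups, beside 49.0% to 50.8% of all genes. In DMSO and EnPGC-1 the median size was 0.55 and 0.43 for the members, beside 0.73 and 0.56 for all genes.

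Some members differed widely within both SGC-CBP30 and Ctrl PIP. Isg15, Usp18, Rsad2, Mx2, Oas1a and Ifi44 were each over 2-fold higher in library 1 of both groups. In counts, Ifi44 had 210 and 21 in libraries 1 and 2 of SGC-CBP30, and Usp18 had 846 and 327. In Ctrl PIP, Ifi44 had 58 and 14 counts, Mx2 65 and 13, Rsad2 177 and 52, and Usp18 2005 and 438. The share of all genes over 2-fold higher in library 1 of both groups is not given here. Gbp2, Igtp, Samhd1 and Gbp3 differed by -0.21 to 0.16 on the log2 scale in both groups, and Bst2, the member next in level to Gbp2, by 0.72 in Ctrl PIP and 0.42 in SGC-CBP30. Across the 40 members, the difference within Ctrl PIP had a correlation of 0.69 with that within SGC-CBP30 (Pearson's r over genes, which are no independent replicates), beside -0.04 across all genes tested. These 2 differences share no library, and the members of a library share its depth and composition. Between DMSO and Ctrl PIP the correlation was -0.69 across members and -0.25 across all genes, and between DMSO and EnPGC-1 it was 0.33 and 0.67. Of the other 92 tested interferon-induced genes, 82 were higher in library 1 of SGC-CBP30 (median 0.28) and 60 in library 1 of Ctrl PIP (median 0.14). Of 5 genes of interferon gamma and its signalling, 2 were higher in library 1 of SGC-CBP30 and 0 in library 1 of Ctrl PIP.

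Some other measures moved with these differences and others did not, and their part in them was not tested. All 13 CD8 T cell markers were higher in library 1 of Ctrl PIP and 12 of 13 in library 1 of SGC-CBP30, by a median of 0.17 in each. Of 13 B cell markers, 12 were higher in library 1 of both groups, with medians of 0.94 and 0.64. Most other lists did not share that direction in Ctrl PIP. There, library 1 was higher for 2 of 6 NK cell, 0 of 4 neutrophil and 1 of 4 CD4 T cell genes. For dendritic cells and macrophages it was 4 of 12, and for plasmacytoid dendritic cells 2 of 6. In SGC-CBP30 these counts were 1, 1, 2, 8 and 6 in that order. Erythroid and platelet genes were higher in library 1 for 4 of 6 (Ctrl PIP) and 6 of 6 (SGC-CBP30). The B cell list summed to 712 and 669 CPM with Ctrl PIP and to 894 and 811 CPM with SGC-CBP30, against 686 to 1059 CPM with DMSO and 862 to 893 CPM with EnPGC-1. Most of each sum was Ighm. The 13 genes were detected in every library, but for Ebf1 with 0 counts in Ctrl PIP library 2. The list of plasmacytoid dendritic cells, known as strong interferon producers, had all 8 genes detected in some library and summed to 30.2 to 79.2 CPM with DMSO, 71.1 to 136 with EnPGC-1, 49.3 to 61.0 with Ctrl PIP and 115 to 133 with SGC-CBP30. Most of that was Ccr9, which T cells also make, and the defining marker Siglech had 0 counts in all libraries but DMSO 2 (3 counts) and EnPGC-1 1 (7 counts). Transcript length had a Spearman's rho of -0.35 with the difference across the members in SGC-CBP30 and of -0.22 in Ctrl PIP, against 0.54 in DMSO and 0.12 in EnPGC-1.

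**Figure D4:**
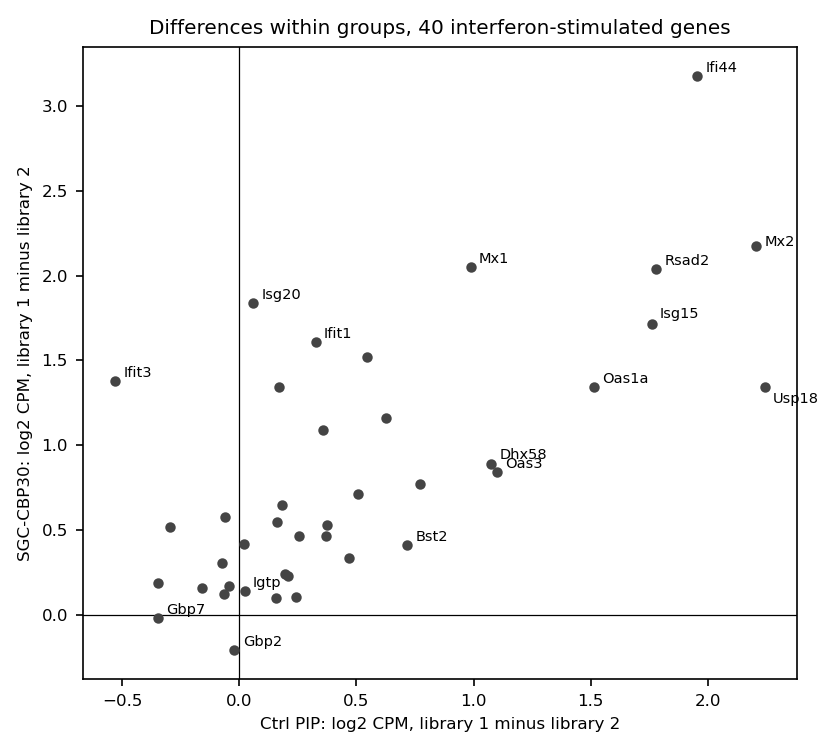
Difference in log2 CPM between library 1 and library 2 for each of the 40 members, within Ctrl PIP (horizontal axis) and within SGC-CBP30 (vertical axis). Points above the horizontal line (38 of 40) are higher in library 1 of SGC-CBP30, and Isg15, Usp18, Rsad2, Mx2, Oas1a and Ifi44 are over 2-fold higher in library 1 of both groups.

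The receptor chain that feeds these genes was expressed in all libraries. All 6 genes of the list (Ifnar1, Ifnar2, Jak1, Tyk2 and the members Stat2 and Irf9) had fold changes above 0 for EnPGC-1 and SGC-CBP30 against DMSO and for EnPGC-1 against Ctrl PIP. Of all genes, 50.2%, 47.2% and 54.1% were above 0 there. All 6 were below 0 for Ctrl PIP against DMSO and against SGC-CBP30, where 41.5% and 48.5% of all genes were above 0. For EnPGC-1 against SGC-CBP30, 4 of 6 were above 0, beside 52.8%. The list summed to 2117 and 1088 CPM (DMSO), 2117 and 1682 (EnPGC-1), 1382 and 1377 (Ctrl PIP), and 1903 and 1735 (SGC-CBP30). All 6 genes were lower in DMSO library 2 than in DMSO library 1. None was called in any of the 6 comparisons by edgeR, at an adjusted or an unadjusted p under 0.05, or by DESeq2. Ifnar1 stood at 287 and 179 CPM (DMSO), 234 and 266 (EnPGC-1), 203 and 175 (Ctrl PIP), and 279.7 and 273 (SGC-CBP30), and Ifnar2 at 126 and 109.5 CPM (DMSO), 94.1 and 146 (EnPGC-1), 118 and 90.03 (Ctrl PIP), and 125 and 114 (SGC-CBP30). Transcripts of both receptor chains were therefore present in all groups, with overlapping libraries against DMSO. Jak1 ranged from 579 CPM in DMSO library 2 to 1404 CPM in EnPGC-1 library 1, and Tyk2 from 73.0 to 146 CPM.

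Of 14 tested genes that sense nucleic acids or pass that signal to interferon genes, none was called by edgeR in the 3 comparisons with DMSO. Beside 438, 100 and 735 of all 16750 genes, 2 (EnPGC-1), 1 (Ctrl PIP) and 1 (SGC-CBP30) of the 14 had an unadjusted p under 0.05. Irf5, which encodes a factor that drives interferon and cytokine genes, was lowest in p, at 9.80 and 11.9 CPM (DMSO), 4.54 and 5.20 (EnPGC-1), 7.02 and 5.16 (Ctrl PIP), and 5.25 and 4.68 (SGC-CBP30). Both libraries of each compound lay below both DMSO libraries, with log2 fold changes of -1.15 (SE 0.28) for EnPGC-1, -0.83 (SE 0.28) for Ctrl PIP and -1.13 (SE 0.28) for SGC-CBP30. These 3 values share the DMSO libraries. Cgas, which encodes the DNA sensor of the STING pathway, was at -0.76 (SE 0.29) for EnPGC-1 against DMSO. Among 9 inhibitors of interferon signalling, edgeR called none. Against DMSO, 2 of the 9 had an unadjusted p under 0.05 with SGC-CBP30 (beside 735 of all genes) and 0 with EnPGC-1 or Ctrl PIP. Socs1, which blocks the kinases, was at 64.8 and 54.6 CPM (DMSO), 70.1 and 64.9 (EnPGC-1), 50.8 and 60.4 (Ctrl PIP), and 47.8 and 51.8 (SGC-CBP30), and Ptpn6, which encodes the phosphatase SHP-1, had log2 fold changes of -0.56 (SE 0.26) with EnPGC-1 and -0.64 (SE 0.26) with SGC-CBP30 against DMSO.

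Of the type II interferon chain, Ifng itself stood at 12.6 and 8.02 CPM (DMSO), 5.71 and 3.36 (EnPGC-1), 6.36 and 9.15 (Ctrl PIP), and 2.76 and 2.28 (SGC-CBP30), and the receptor gene Ifngr2 at 14.5 and 13.5 CPM (DMSO), 22.2 and 31.95 (EnPGC-1), 16.6 and 20.00 (Ctrl PIP), and 32.2 and 34.1 (SGC-CBP30). No gene of that list of 5 was called by edgeR. Its unadjusted p was under 0.05 for 2, 0 and 2 of them with EnPGC-1, Ctrl PIP and SGC-CBP30 against DMSO. Over all 16750 genes, the counts were 438, 100 and 735. The 2 libraries of EnPGC-1 and of SGC-CBP30 lay below DMSO for Ifng and above it for Ifngr2. DESeq2 called these 2 genes for SGC-CBP30 against DMSO, and it called none of the sensing genes, the inhibitors or the further interferon-induced genes below in any comparison.

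Another 92 tested genes known to respond to interferons, none of them a member, had 63 fold changes above 0 for EnPGC-1 against DMSO (median 0.19), 18 for Ctrl PIP against DMSO (median -0.13), 47 for SGC-CBP30 against DMSO (median 0.00) and 74 for EnPGC-1 against Ctrl PIP (median 0.33). The shares above 0 were 68.5%, 19.6%, 51.1% and 80.4% in that order, beside 50.2%, 41.5%, 47.2% and 54.1% of all 16750 genes tested. None of the 92 was called by edgeR in any of these, against 0% of all genes. Its unadjusted p was under 0.05 for 1, 0, 5 and 4 of the 92, beside 438, 100, 735 and 750 of all genes. For EnPGC-1 against SGC-CBP30, 74 of the 92 were likewise above 0 (80.4%, median 0.22, beside 52.8% of all genes). For Ctrl PIP against SGC-CBP30, 35 were (38.0%, median -0.12, beside 48.5%). In these comparisons edgeR called none either, and 2 and 3 had an unadjusted p under 0.05, beside 340 and 668 of all genes. Within groups, library 1 was higher for 65 of the 92 in DMSO and for 60 in EnPGC-1. Iigp1, an immunity-related GTPase like Igtp, stood at 197 and 78.1 CPM (DMSO), 261 and 198 (EnPGC-1), 104 and 100.3 (Ctrl PIP), and 174 and 156 (SGC-CBP30), with a log2 fold change of 1.17 (SE 0.42, 95% interval 0.16 to 2.18) for EnPGC-1 against Ctrl PIP. Slfn9, a Schlafen gene, stood at 25.01 and 22.4 CPM (DMSO), 22.1 and 18.9 (EnPGC-1), 21.98 and 23.9 (Ctrl PIP), and 32.8 and 40.9 (SGC-CBP30), and Ms4a4c at 134 and 184 CPM (DMSO), 149.8 and 146 (EnPGC-1), 168 and 131 (Ctrl PIP), and 104 and 86.1 (SGC-CBP30). For SGC-CBP30 against DMSO, Slfn9 was at 0.64 (SE 0.20) and Ms4a4c at -0.74 (SE 0.24), with libraries apart in opposite directions.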

How the data were processed

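The authors deposited whole-number counts per gene (Entrez IDs), 1 column per library with no pooling, and regularized log2 values of the same libraries, whose header names stand 1 column to the left of the values. Per the submitters' processing notes, HISAT2, StringTie, DESeq2 and mm10 are named, with the counting rule, strand setting and annotation not given in the sources used here. Total counts were 38890043 to 55491261 per library. There were 0 columns of other samples.

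Members were matched by symbol through the log2 table and joined by gene ID. The test was edgeR's quasi-likelihood test on the counts (edgeR 4.0.16, R 4.3.3; robust, TMM, filterByExpr by group, all 8 libraries, 4 residual degrees of freedom), two-sided, with Benjamini-Hochberg adjustment over 16750 genes at 0.05. The scripts were tested on simulated data whose spread between libraries was smaller than here. That test does not show which differences could be found in these data. CPM used TMM library sizes, log2 CPM a prior count of 2, and RPKM the longest GENCODE M21 transcript (known for 92.2% of the genes tested). Gene positions and promoters came from RefSeq tables on GRCm38.p6, the assembly called mm10, and promoter windows were printed only where they end before the start and lie outside the gene. Values in all libraries were given for 14 members set by name and for the 3 members with the smallest p in each comparison, with Dtx3l, Parp9 and single values of other members added. Alternatives were DESeq2 1.42.0 (its Wald test, or its size factors in edgeR), unfiltered genes, a replicate block, fits of 4 libraries alone, limma 3.58.1 on the log2 values, offsets for transcript length and GC content (mgcv 1.9.3), and libraries left out. Members, gene lists and tests were chosen with earlier results of these data known. A gene of the signalling chain is not reported here.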

Additional observations from a re-analysis of the deposited data

How the results depend on the processing

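With 1 library left out, or library 1 or 2 of both DMSO and EnPGC-1, the median log2 fold change over the 40 members ranged from -0.22 to 0.29 for EnPGC-1 against DMSO, from -0.34 to 0.056 for Ctrl PIP against DMSO, from -0.31 to 0.37 for SGC-CBP30 against DMSO, from 0.0048 to 0.52 for EnPGC-1 against Ctrl PIP, from -0.21 to 0.51 for EnPGC-1 against SGC-CBP30 and from -0.50 to 0.14 for Ctrl PIP against SGC-CBP30. Members called ranged from 0 to 4, 0 to 2, 0 to 13, 0 to 8, 0 to 0 and 0 to 4 in that order; all counts above 0 came from fits without a library of both DMSO and EnPGC-1. The fit of only the 4 libraries of Ctrl PIP and SGC-CBP30 called 5 members and left the other 5 comparisons at 0. With DESeq2's test, its size factors, no filter, limma on the log2 values or offsets for length and GC content, 0 members were called and each median moved by less than 0.24, the spread between libraries of a group. Among the 3 members with the smallest p in each comparison, 310 alternative values kept their direction and their side of the threshold, 14 passed it and 0 reversed. No main value passed the threshold, so that keeping a side was nearly fixed beforehand. The tally ignores size: Bst2 counts as kept without DMSO library 2, where its difference from SGC-CBP30 nearly vanished. It also includes fits that left out no library of the comparison, so it does not measure how stable the values are.

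With the replicate number as a block, 0 members were called in all 6 comparisons, with or without the offsets, and the medians were 0.019, -0.20, 0.091, 0.27, 0.094 and -0.18 in the order above. The block lowered the common coefficient of variation from 0.415 to 0.360. Over all genes, differences between library 1 and 2 correlated at 0.67, 0.23 and 0.23 among DMSO, EnPGC-1 and SGC-CBP30, and at -0.25 to -0.039 between these and Ctrl PIP, and no label ties the numbers to an animal or day, so they were not taken to pair the libraries. Depth limits members of low level: the lowest count of a member in a library was 13.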
